A study of Mus musculus with 9 samples.

Results

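The Notch pathway genes described here are the receptors *Notch1*, *Notch2*, *Notch3*, and *Notch4*, the ligands *Dll1*, *Dll3*, *Jag1*, and *Jag2*, and the target genes *Hes1* and *Hey1*. They were taken by gene symbol from a list written by hand, and all 10 are present in the count tables, which list 25239 symbols. All 10 also passed the filter on low counts, which 14125 genes passed. RNA-seq was performed on mouse E14 embryonic stem cells (ESCs, pluripotent cells taken from the early embryo), with the strain given as 12910la. The control carries unmutated *Rbbp4* (*Rbbp4*+/+). In *Rbbp4* Ins/Ins both alleles carry a small in-frame insertion in the coding sequence, made with CRISPR-Cas9, and in *Rbbp4* Ins/Del this insertion on one allele is joined by a small in-frame deletion on the other. RBBP4 is a histone-binding protein shared by several chromatin complexes, among them PRC2, which methylates H3K27, and the NuRD and Sin3 histone deacetylase complexes. All cells grew in medium with fetal bovine serum and leukemia inhibitory factor, and each genotype was sequenced as 3 libraries, 9 in all. Each mutant line is a single clone, so genotype and clone cannot be told apart, and nothing states that the libraries of a line came from separate cultures. The p-values therefore measure the spread between libraries, which may be technical.

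Notch receptors are single-pass membrane proteins that are activated by ligands of the Delta-like and Jagged families on neighboring cells. Ligand binding leads to cleavage of the receptor by ADAM proteases and then by γ-secretase, and the released intracellular domain enters the nucleus, where it joins the DNA-binding protein RBPJ and Mastermind coactivators at target genes such as *Hes1*. Mouse ESCs express several of the receptors and ligands, and Notch signaling is best known there for a role in the choice of neural fate once the cells differentiate.

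The stretches just upstream of the RefSeq transcription starts of the 4 receptors are shown, since their RNA levels did not all move the same way. They come from the RefSeq promoter sequences on GRCm38.p6 (the mm10 build), run 5′ to 3′ on the strand of the gene, and leave out bases that GENCODE places in an exon. Capitals mark CpG dinucleotides, the sites at which mammalian DNA is methylated. *Notch1*, on the minus strand, is shown from chr2:26503825-26504072 and has 16 CpG, before a RefSeq start that lies inside the longer interval GENCODE gives the gene. The *Notch2* stretch, on the plus strand at chr3:98013288-98013526, has 34 CpG. *Notch3*, on the minus strand, is shown from chr17:32166891-32167140 and has 17 CpG. The *Notch4* stretch, on the plus strand at chr17:34564045-34564267, has 4 CpG.
Notch1: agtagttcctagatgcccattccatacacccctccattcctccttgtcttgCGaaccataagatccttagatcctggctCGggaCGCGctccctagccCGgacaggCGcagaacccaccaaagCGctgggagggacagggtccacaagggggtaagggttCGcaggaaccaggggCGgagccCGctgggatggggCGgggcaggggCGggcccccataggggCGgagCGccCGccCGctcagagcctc
Notch2: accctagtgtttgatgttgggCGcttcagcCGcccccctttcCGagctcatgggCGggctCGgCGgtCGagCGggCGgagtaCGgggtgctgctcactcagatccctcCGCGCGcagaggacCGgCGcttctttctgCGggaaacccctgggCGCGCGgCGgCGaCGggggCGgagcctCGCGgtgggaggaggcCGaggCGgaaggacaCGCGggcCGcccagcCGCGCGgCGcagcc
Notch3: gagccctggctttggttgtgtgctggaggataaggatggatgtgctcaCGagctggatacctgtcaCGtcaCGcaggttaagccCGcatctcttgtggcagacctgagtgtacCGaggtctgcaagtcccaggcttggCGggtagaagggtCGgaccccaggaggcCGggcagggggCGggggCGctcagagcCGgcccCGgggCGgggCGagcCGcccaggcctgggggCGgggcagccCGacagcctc
Notch4: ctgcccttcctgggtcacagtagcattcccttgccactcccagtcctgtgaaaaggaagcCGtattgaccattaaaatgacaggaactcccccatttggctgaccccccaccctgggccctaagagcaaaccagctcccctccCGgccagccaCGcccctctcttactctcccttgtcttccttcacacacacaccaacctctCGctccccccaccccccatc
Entries for 8 of the 10 genes were matched, with 9 promoters, as *Dll1* has 2. The target genes *Hes1* and *Hey1* had no matched entry, so their promoters were not searched. In the 250 bases before the start, 8 of these 9 promoters had more CpG than the median of 6 over all 32851 RefSeq promoters, and *Notch4* alone had fewer. The core letters of the RBPJ binding site, TGGGAA, were found on neither strand of the 9 promoters, against 21.6% of all promoters. The letters TTTGAA, part of the site of TCF factors, were found in 1 of the 9 against 16.0% of all. CACGTG, a single form of the E-box, was found in 0 of the 9 against 6.02%. Other forms of the E-box were not searched, so these promoters may hold them. These are matches of letters, not mapped binding sites, and the shares of 9 promoters were not tested against those of all.

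The 9 libraries held between 15838064 and 21366868 counted reads, and their TMM scaling factors lay between 0.993 and 1.02. Values below are normalized counts, which are reads of a gene scaled to a common library size, and they can be compared between libraries but not between genes of different length. The mutated gene *Rbbp4* averaged 10005 ± 99.1 normalized counts in controls, 5604 ± 153 in Ins/Ins, and 10359 ± 238 in Ins/Del (SD, n = 3 each). It fell in Ins/Ins (log2 fold change -0.84, adjusted p = 1.78e-25), and its log2 fold change in Ins/Del was 0.050 (adjusted p = 0.107). Both alleles keep most of the gene, so its count does not check the genotype. The pluripotency list of 8 genes, which holds *Pou5f1*, *Nanog*, and *Sox2*, summed to 91721 to 95904 normalized counts in controls, 114527 to 116635 in Ins/Ins, and 114560 to 117253 in Ins/Del. Of the 8 genes, 6 rose and 1 fell in Ins/Ins and 5 rose in Ins/Del. Of all tested genes, 29.0% rose and 29.4% fell in Ins/Ins, and 30.6% rose and 31.9% fell in Ins/Del. *Zfp42*, *Klf4*, *Esrrb*, *Dppa5a*, and *Nanog* rose in both mutants, *Sox2* rose by 0.12 on the log2 scale in Ins/Ins (adjusted p = 0.000188) and had 0.017 in Ins/Del (adjusted p = 0.591), and *Pou5f1* fell by 0.12 in Ins/Ins (adjusted p = 0.000203) and had -0.032 in Ins/Del (adjusted p = 0.303).

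Relative to the control, 8 of the 10 genes fell in Ins/Ins and the same 8 fell in Ins/Del. They were 3 receptors (*Notch2*, *Notch3*, and *Notch4*), all 4 ligands, and *Hes1*. The receptor *Notch1* rose in both mutants, and the target *Hey1* passed the test in neither. Calls were made with edgeR's quasi-likelihood test at a Benjamini-Hochberg adjusted p of at most 0.01 over all tested genes, and at this limit 29.4% of all tested genes were lower and 29.0% higher in Ins/Ins, against 31.9% lower and 30.6% higher in Ins/Del. *Notch3*, *Dll1*, and *Dll3* fell by more than 2-fold in each mutant, where 8.96% of tested genes did so in Ins/Ins and 10.2% in Ins/Del. None of the 10 genes rose by more than 2-fold, against 7.00% and 8.45% of tested genes. These shares are for each mutant alone, and the shares of tested genes called in both mutants were not counted. The median log2 fold change of the 10 genes was -0.63 in Ins/Ins and -0.71 in Ins/Del, and over all tested genes it was 0.0038 and -0.011. Both mutants are compared with the same 3 control libraries, so their fold changes are not independent of each other. In bulk RNA, fewer cells that express a gene and less of its RNA per cell cannot be told apart.

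**Figure D1:**
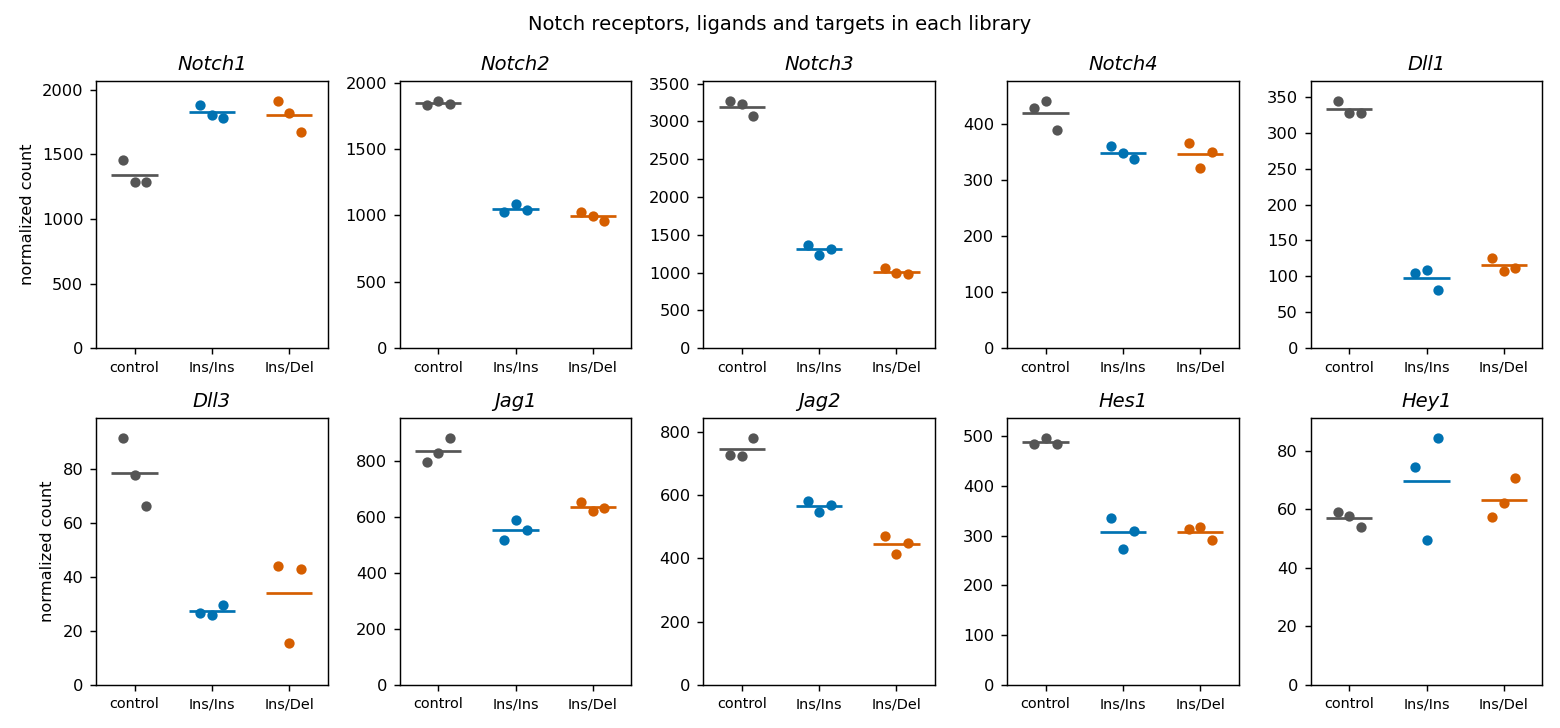
Normalized counts (y axes, linear from 0) of the 10 Notch pathway genes in each of the 9 libraries, with control in gray, Ins/Ins in blue, and Ins/Del in orange. Points are libraries and horizontal lines are group means. For *Notch3* the control libraries lie between 3077 and 3273 and every mutant library lies at or below 1367, whereas the *Hey1* points of the groups overlap.

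*Notch3*, whose product is best known in vascular smooth muscle, lies at chr17:32120820-32166852 on the minus strand and had the largest fall of the receptors. The control libraries had 3273, 3225, and 3077 normalized counts of *Notch3*, the Ins/Ins libraries 1367, 1238, and 1313, and the Ins/Del libraries 1062, 992, and 982. The 3 groups did not overlap, and Ins/Del was the lowest. The mean fell 2.44-fold in Ins/Ins (log2 fold change -1.29, 95% interval -1.37 to -1.21, adjusted p = 7.87e-27) and 3.15-fold in Ins/Del (log2 fold change -1.66, 95% interval -1.74 to -1.57, adjusted p = 4.53e-30). Exons of the antisense gene *Gm17276* cover 6.03% of the exonic length of *Notch3*.

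*Notch2*, at chr3:98013527-98150361 on the plus strand, encodes a broadly expressed receptor. It had 1836, 1864, and 1836 normalized counts in controls, 1026, 1083, and 1039 in Ins/Ins, and 1027, 996, and 957 in Ins/Del. All 6 mutant libraries were lower than the controls, while the mutants overlapped each other. *Notch2* fell 1.76-fold in Ins/Ins (log2 fold change -0.82, 95% interval -0.90 to -0.73, adjusted p = 9.66e-20) and 1.86-fold in Ins/Del (log2 fold change -0.89, 95% interval -0.98 to -0.81, adjusted p = 5.64e-21). The annotated gene *Gm42820* covers 5.02% of its exonic length on the same strand.

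*Notch4*, a receptor best known in endothelial cells, lies at chr17:34564268-34588503 on the plus strand. The control libraries had 430.0, 442, and 389.8 normalized counts of *Notch4*, the Ins/Ins libraries 361, 349, and 338, and the Ins/Del libraries 366, 322, and 351. The control libraries lay above the mutants by a small margin. The fall was 1.20-fold in Ins/Ins (log2 fold change -0.27, 95% interval -0.41 to -0.12, adjusted p = 0.00143) and 1.22-fold in Ins/Del (log2 fold change -0.29, 95% interval -0.43 to -0.14, adjusted p = 0.000693). These calls rested on single libraries, since without control replicate 2 the Ins/Ins value was -0.22 (adjusted p = 0.0149), and without Ins/Del replicate 2 the Ins/Del value was -0.23 (adjusted p = 0.0136).

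*Notch1*, the receptor most studied in ESC differentiation and in T cells, lies at chr2:26457903-26516663 on the minus strand. It had 1458, 1284, and 1288 normalized counts in controls, 1885, 1807, and 1781 in Ins/Ins, and 1915, 1823, and 1669.6 in Ins/Del. All 6 mutant libraries were above all control libraries, and the mutants overlapped. *Notch1* rose 1.36-fold in Ins/Ins (log2 fold change 0.44, 95% interval 0.34 to 0.53, adjusted p = 1.83e-10) and 1.34-fold in Ins/Del (log2 fold change 0.42, 95% interval 0.33 to 0.52, adjusted p = 4.33e-10). The opposite-strand genes *0610009E02Rik* and *Gm13568* cover 7.5% and 2.91% of its exonic length, and the first of them was counted with 3 to 10 reads per library.

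Levels of different receptors were compared as normalized counts per kb of exonic length. On this scale *Notch3* was the most abundant receptor of control ESCs, at 395 ± 12.6 per kb (SD, n = 3), followed by *Notch2* at 171 ± 1.48, *Notch1* at 94.4 ± 6.95, and *Notch4* at 52.2 ± 3.40, and the library ranges of these 4 did not overlap. In Ins/Ins the order was *Notch3* (161 ± 8.01 per kb), *Notch1* (128 ± 3.81), *Notch2* (97.4 ± 2.77), and *Notch4* (43.3 ± 1.41), again without overlap. In Ins/Del, *Notch1* at 127 ± 8.70 per kb and *Notch3* at 125 ± 5.40 could not be ordered, since their libraries ranged from 117 to 135 and from 121 to 131. *Notch2* followed at 92.1 ± 3.28 and *Notch4* at 43.0 ± 2.76 per kb. The order of genes depends on the exonic lengths used, 14232 bp for *Notch1* and 8089 bp for *Notch3*. These are unions of all annotated exons, which can be longer than the transcripts the cells make. The SDs cover the spread between libraries only.

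The summed level of the 4 receptors was 712 ± 20.9 per kb in the control, 430.3 ± 9.67 in Ins/Ins, and 387 ± 18.1 in Ins/Del (SD, n = 3 each). The *Notch3* share of this sum was 55.4% ± 0.238 in the control, 37.5% ± 1.20 in Ins/Ins, and 32.3% ± 0.366 in Ins/Del. The *Notch1* share was 13.2% ± 0.721, 29.8% ± 0.342, and 32.7% ± 0.965 in the same order. The *Notch2* share moved little, with 24.0% ± 0.701, 22.6% ± 1.07, and 23.8% ± 0.351, although its level fell. *Notch4* made up 7.32% ± 0.321 of the control sum, 10.1% ± 0.188 in Ins/Ins, and 11.1% ± 0.647 in Ins/Del. These shares are of RNA read counts and depend on the same exonic lengths, and the members of a sum cannot move independently in it.

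**Figure D2:**
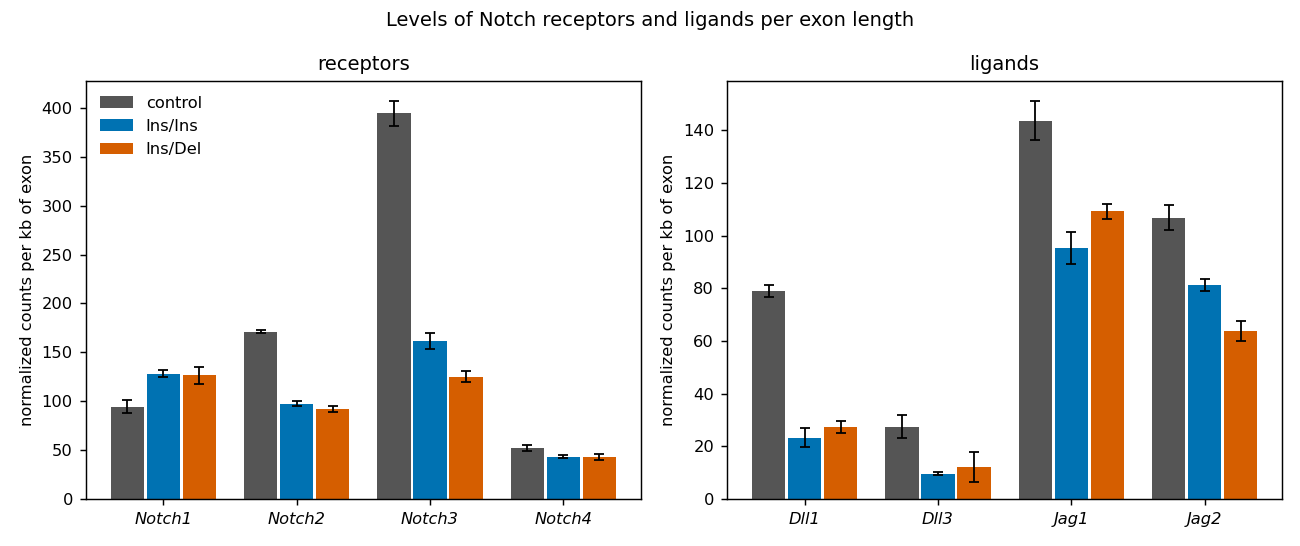
Mean normalized counts per kb of exonic length (y axes, linear from 0) of the 4 receptors (left) and the 4 ligands (right) in the control (gray), Ins/Ins (blue), and Ins/Del (orange). Error bars are SD over 3 libraries. *Notch3* falls from 395 per kb in the control to 125 in Ins/Del, where it stands beside *Notch1* at 127, and *Jag1* stays the highest ligand in each group.

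All 4 ligands fell in both mutants, with larger fold changes for the Delta-like genes than for the Jagged genes, although the intervals of *Dll3* and *Jag2* overlapped in Ins/Del. *Dll1*, which encodes a canonical activating ligand, lies at chr17:15367354-15376872 on the minus strand. It had 345, 328, and 328 normalized counts in controls, 104, 109, and 80.3 in Ins/Ins, and 126, 107, and 112 in Ins/Del. The control libraries were far above all mutant libraries. *Dll1* fell 3.40-fold in Ins/Ins (log2 fold change -1.76, 95% interval -1.97 to -1.55, adjusted p = 6.63e-18) and 2.90-fold in Ins/Del (log2 fold change -1.54, 95% interval -1.74 to -1.33, adjusted p = 1.58e-16). Exons of *A930024N18Rik*, on the opposite strand, cover 20.5% of the exonic length of *Dll1*, and the strand setting of the read counting is not given in the sources used here, so reads of the 2 genes may not be separated.

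*Dll3*, whose product is known as an inhibitory ligand that acts inside the cell during somite formation, lies at chr7:28293553-28302238 on the minus strand. Among *Dll1*, *Dll3*, *Jag1*, and *Jag2* it had the fewest reads. The control libraries had 91.5, 77.5, and 66.0 normalized counts of *Dll3*, the Ins/Ins libraries 26.5, 26.0, and 29.6, and the Ins/Del libraries 44.0, 15.3, and 42.8. All mutant libraries lay below the control, and Ins/Del replicate 2 was the lowest of all 9. *Dll3* fell 2.88-fold in Ins/Ins (log2 fold change -1.53, 95% interval -2.00 to -1.06, adjusted p = 3.15e-07) and 2.39-fold in Ins/Del (log2 fold change -1.25, 95% interval -1.71 to -0.80, adjusted p = 5.17e-06). Without Ins/Del replicate 2 the log2 fold change in Ins/Del was -0.86 (adjusted p = 0.000362), which is under 2-fold.

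*Jag1*, at chr2:137081456-137116644 on the minus strand, encodes a Jagged ligand known from inner ear and vessel development. It had 798, 828, and 885 normalized counts in controls, 519, 590.2, and 554 in Ins/Ins, and 654, 622, and 634 in Ins/Del. The groups did not overlap, and Ins/Del lay between the other groups. *Jag1* fell 1.51-fold in Ins/Ins (log2 fold change -0.60, 95% interval -0.71 to -0.48, adjusted p = 1.27e-11) and 1.31-fold in Ins/Del (log2 fold change -0.39, 95% interval -0.51 to -0.28, adjusted p = 1.21e-07).

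*Jag2*, at chr12:112907819-112929776 on the minus strand, encodes the other Jagged ligand. The control libraries had 728, 723, and 782 normalized counts of *Jag2*, the Ins/Ins libraries 579.9, 547, and 569, and the Ins/Del libraries 469, 415, and 449. The groups did not overlap, and here Ins/Del was the lowest. *Jag2* fell 1.31-fold in Ins/Ins (log2 fold change -0.39, 95% interval -0.51 to -0.27, adjusted p = 2.36e-07) and 1.68-fold in Ins/Del (log2 fold change -0.74, 95% interval -0.87 to -0.62, adjusted p = 8.94e-14).

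Per kb of exonic length, the ligands stood in the same order in each group, with *Jag1* first, then *Jag2*, *Dll1*, and *Dll3*, and the library ranges of neighbors in this order did not overlap within a group. In the control their levels were 144 ± 7.51, 107 ± 4.70, 79.0 ± 2.27, and 27.5 ± 4.47 per kb (SD, n = 3 each). The sum of the 4 ligands was 357 ± 7.28 per kb in the control, 209 ± 4.99 in Ins/Ins, and 212 ± 14.1 in Ins/Del. The *Dll1* share of it was 22.2% ± 0.841 in the control, 11.1% ± 1.61 in Ins/Ins, and 12.8% ± 0.440 in Ins/Del. *Jag1* held 40.2% ± 1.53, 45.5% ± 2.06, and 51.6% ± 2.25 of the sum in the same order.

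Of the target genes, which encode basic helix-loop-helix repressors, *Hes1* fell in both mutants and *Hey1* did not pass the test. *Hes1*, at chr16:30064384-30067796 on the plus strand, is also induced by other signals than Notch. It had 485, 498, and 485 normalized counts in controls, 336, 274, and 309.7 in Ins/Ins, and 314, 317, and 292 in Ins/Del. Every mutant library was below every control library, and the mutants overlapped. *Hes1* fell 1.58-fold in Ins/Ins (log2 fold change -0.66, 95% interval -0.81 to -0.52, adjusted p = 3.06e-10) and 1.59-fold in Ins/Del (log2 fold change -0.67, 95% interval -0.81 to -0.52, adjusted p = 2.55e-10).

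*Hey1*, at chr3:8663359-8667256 on the minus strand, is a target known from the vasculature and the heart. It had 59.0, 57.6, and 54.1 normalized counts in controls, 74.4, 49.7, and 84.6 in Ins/Ins, and 57.2, 62.3, and 70.6 in Ins/Del. The mutant libraries overlapped the control, with the widest spread in Ins/Ins. The log2 fold change was 0.30 in Ins/Ins (95% interval -0.057 to 0.65, adjusted p = 0.13) and 0.15 in Ins/Del (95% interval -0.22 to 0.51, adjusted p = 0.477). Per kb, *Hes1* stood at 240.1 ± 3.60 and *Hey1* at 17.4 ± 0.767 in the control (SD, n = 3).

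**Figure D3:**
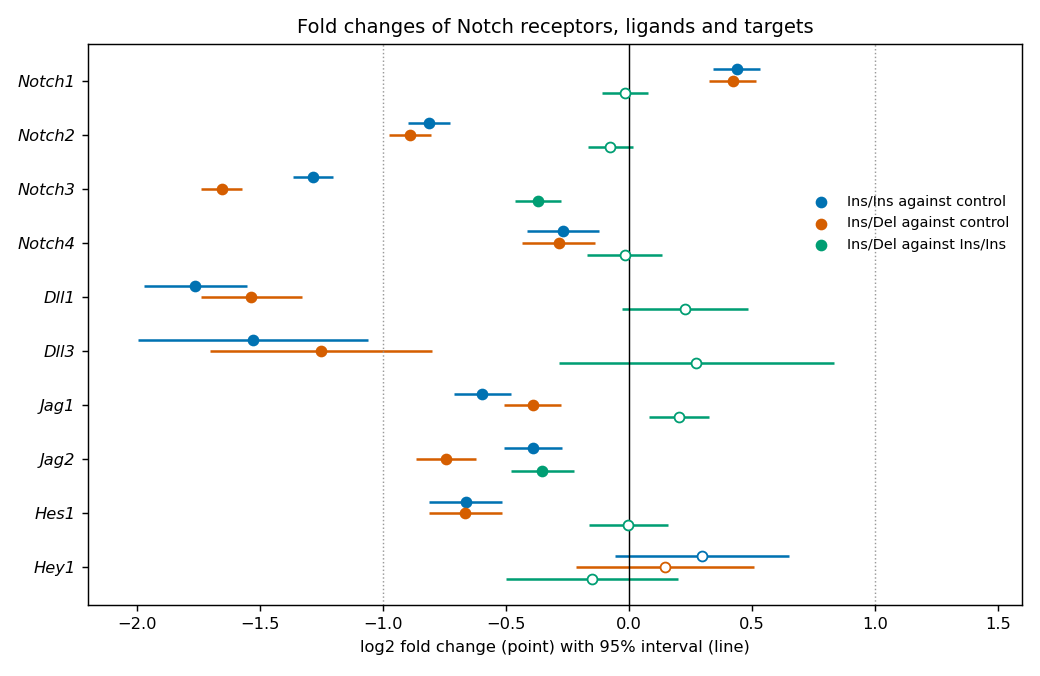
Log2 fold changes (x axis) of the 10 genes in Ins/Ins against control (blue), Ins/Del against control (orange), and Ins/Del against Ins/Ins (green), with lines for the 95% interval. Filled points passed the adjusted p limit of 0.01, open points did not, and dotted lines mark a 2-fold change. The 8 falling genes lie left of 0 in both mutants, *Notch1* lies right of it, and only *Notch3* and *Jag2* have a filled green point.

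The mutants were compared directly to see where the alleles, or the clones, differed. Of the 10 genes, 2 were lower in Ins/Del than in Ins/Ins and 0 were higher, where 4.64% of all tested genes were lower and 6.17% higher. *Notch3* was 1.29-fold lower in Ins/Del (log2 difference -0.37, 95% interval -0.46 to -0.28, adjusted p = 9.39e-08). *Jag2* was 1.28-fold lower (log2 difference -0.35, 95% interval -0.48 to -0.22, adjusted p = 7.53e-05). *Jag1* went the other way, with a log2 difference of 0.20 (95% interval 0.082 to 0.33) that did not pass the limit in edgeR (adjusted p = 0.0141), but did without Ins/Ins replicate 2 (0.25, adjusted p = 0.00801). At an unadjusted p under 0.05, 1 gene was higher and 2 were lower in edgeR as well as in DESeq2, and DESeq2 also called 0 higher after adjustment. For *Dll1* the difference was 0.23 (95% interval -0.029 to 0.48) and for *Dll3* 0.27 (95% interval -0.28 to 0.83), so differences of this size were within error. The values were nearest 0 for *Notch1*, *Notch4*, and *Hes1*, with differences of -0.017 (95% interval -0.11 to 0.076), -0.018 (95% interval -0.17 to 0.13), and -0.0025 (95% interval -0.16 to 0.16). *Notch2* differed by -0.076 (95% interval -0.17 to 0.016) and *Hey1* by -0.15 (95% interval -0.50 to 0.20).

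Markers of other cell types moved between the same groups, where 29.0% of all tested genes rose and 29.4% fell in Ins/Ins. In Ins/Del 30.6% rose and 31.9% fell. The 8 neural progenitor markers summed to 3012 to 3062 normalized counts in controls, 1328 to 1456 in Ins/Ins, and 1643 to 1713 in Ins/Del. Of the 4 that could be tested, *Nes* and *Pax6* fell and *Tubb3* rose in both mutants, and 3 of the 8 had at most 3 reads in every library. The 8 fibroblast markers summed to 623 to 732 in the control, 279 to 301 in Ins/Ins, and 355 to 388 in Ins/Del, and of the 5 that could be tested 4 fell and 1 rose in each mutant. *Col1a1* fell from 287 in the control to 17.0 and 24.4 in the mutants, and *Thy1* rose from 45.7 to 246 and 312, which is most of the mutant sums. The 8 endothelial markers summed to 589 to 625, 1325 to 1365, and 1347 to 1396, where *Tek* and *Vwf* rose in both mutants, *Tie1* fell in both (log2 fold change -1.55 and -1.46), and *Plvap* fell in Ins/Del (-0.59, adjusted p = 0.0094). The mesoderm list summed to 293 to 313, 362 to 403, and 309 to 333, with *Eomes* higher in both mutants (193 in the control, 322 and 271 in the mutants), *T* and *Foxc1* lower in both, and *Hand1* lower in Ins/Del. The primitive endoderm list summed to 1725 to 1854, 1686 to 1815, and 2332 to 2352, with 1 gene higher and 2 lower in Ins/Ins and 5 higher and 2 lower in Ins/Del. No marker of these lists was at 0 in all libraries, but the fibroblast, mesoderm, and endothelial lists each held 1 with at most 3 reads in every library. The part of such cells in the Notch pathway changes was not tested.

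The rest of the pathway was read from a list of 46 genes, of which 39 could be tested. In Ins/Ins 8 rose, 17 fell, and 14 did not pass, and in Ins/Del 8 rose, 16 fell, and 15 did not pass. The share called was 64.1% in Ins/Ins and 61.5% in Ins/Del, near the 58.4% and 62.5% of all tested genes. Their median log2 fold change was -0.12 in Ins/Ins and -0.16 in Ins/Del.

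**Figure D4:**
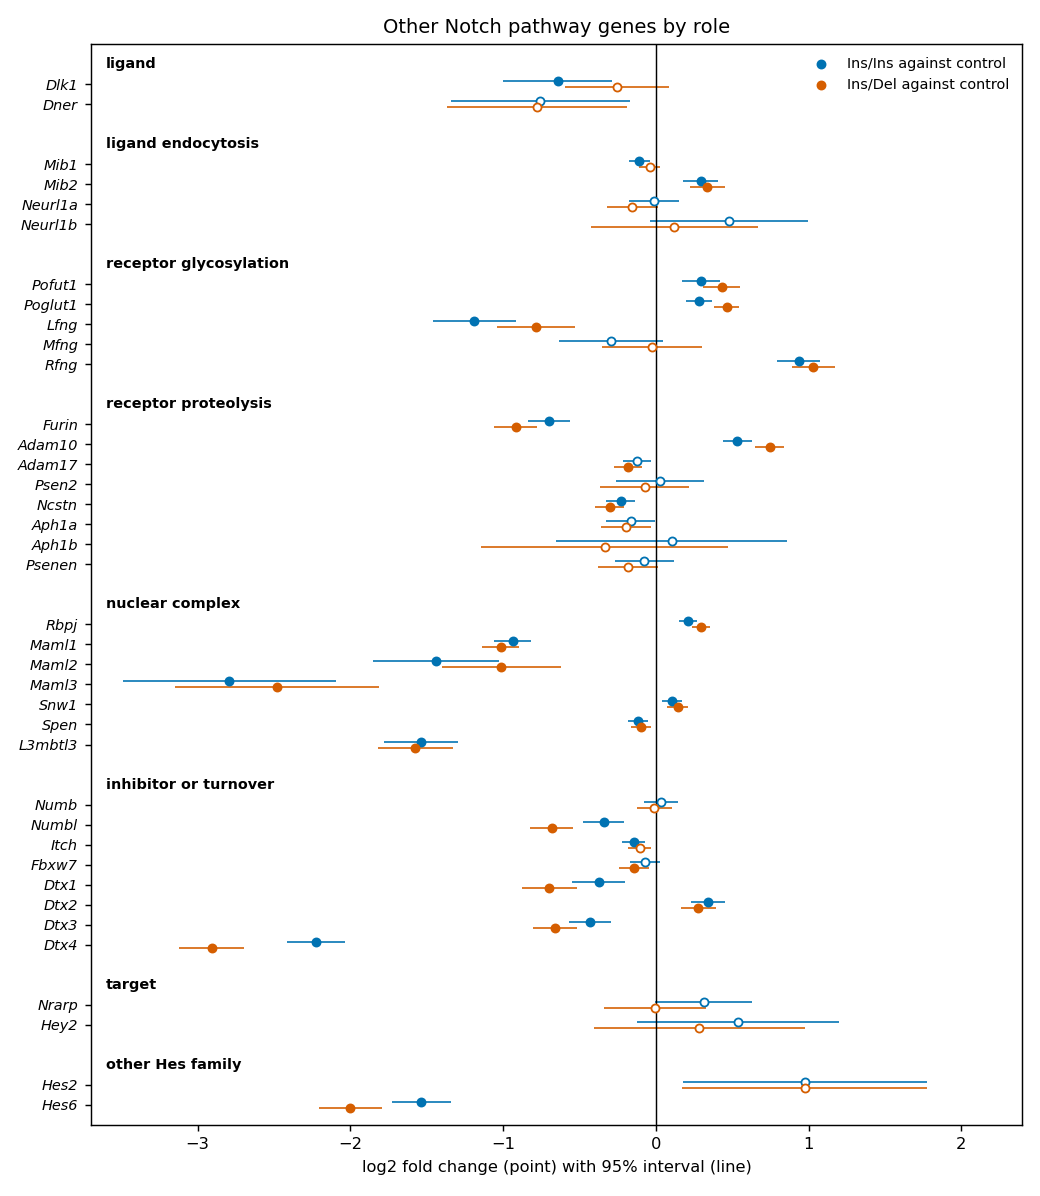
Log2 fold changes (x axis) of the other Notch pathway genes that could be tested and are reported here, grouped by role, in Ins/Ins (blue) and Ins/Del (orange) against control, with lines for the 95% interval. Filled points passed the adjusted p limit of 0.01. The largest falls are those of *Dtx4* and *Maml3*, *Lfng* and *Rfng* lie on opposite sides of 0, and intervals are widest for genes with few reads.

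Among the other ligands, *Dlk1*, which lacks the receptor-activating domain of the Delta-like proteins, had 100.5 ± 24.8 normalized counts in the control and fell in Ins/Ins (log2 fold change -0.64, adjusted p = 0.00156), while its value in Ins/Del was -0.26 (adjusted p = 0.169). *Dner* passed the test in neither mutant (adjusted p = 0.0203 and 0.0167). *Dll4* had too few reads for a test, at 26 reads over the control libraries, 12 over Ins/Ins, and 14 over Ins/Del. Of the 4 ubiquitin ligases that prepare ligands for endocytosis, *Mib2* rose in both mutants (log2 fold change 0.29, adjusted p = 2.11e-05, and 0.34, adjusted p = 1.7e-06). *Mib1*, the most studied of them, fell by 0.11 on the log2 scale in Ins/Ins (adjusted p = 0.00502) and had -0.041 in Ins/Del (adjusted p = 0.271). *Neurl1a* did not pass in either (adjusted p = 0.881 and 0.0895).

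The enzymes that glycosylate the receptor moved in different directions, with 3 of 5 higher and 1 lower in each mutant (all tested genes, 29.0% higher and 29.4% lower in Ins/Ins, 30.6% and 31.9% in Ins/Del). The Fringe genes encode transferases that extend O-fucose on the receptor and change its response to Delta-like and Jagged ligands. *Lfng* had 166, 141, and 171 normalized counts in controls, 67.6, 71.1, and 71.9 in Ins/Ins, and 100.2, 100.2, and 75.2 in Ins/Del. It fell 2.28-fold in Ins/Ins (log2 fold change -1.19, adjusted p = 4.84e-10) and 1.72-fold in Ins/Del (log2 fold change -0.78, adjusted p = 9.72e-07). *Rfng* went the opposite way, from 275, 324, and 275 in the control to 571, 559, and 535 in Ins/Ins and 588, 581, and 613 in Ins/Del. Its rise was 1.91-fold (log2 fold change 0.93, adjusted p = 9.29e-15) and 2.04-fold (log2 fold change 1.03, adjusted p = 3.42e-16). The third Fringe gene, *Mfng*, did not pass (adjusted p = 0.117 and 0.893). The O-glucosyltransferase gene *Poglut1* rose by log2 0.28 and 0.46, and *Pofut1*, the O-fucosyltransferase gene, by 0.30 and 0.43.

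Genes for receptor proteolysis moved in both directions. *Adam10*, the protease that cleaves ligand-bound Notch, had 814, 808, and 771 normalized counts in controls, 1113, 1163, and 1192 in Ins/Ins, and 1347, 1336, and 1333 in Ins/Del. It rose 1.45-fold in Ins/Ins (log2 fold change 0.53, adjusted p = 1.02e-12) and 1.68-fold in Ins/Del (log2 fold change 0.75, adjusted p = 2.6e-17), and the groups did not overlap. *Furin*, which makes the first cut during receptor maturation, fell by 0.70 and 0.92 on the log2 scale. *Ncstn*, a γ-secretase subunit gene, fell by 0.23 and 0.30 on the log2 scale. The subunit genes *Psen2* (adjusted p = 0.876 and 0.667), *Aph1a* (0.067 and 0.0281), *Aph1b* (0.819 and 0.463), and *Psenen* (0.49 and 0.0859) passed in neither mutant. *Adam17* fell only in Ins/Del at this limit, by 0.18, with -0.13 in Ins/Ins (adjusted p = 0.0147).

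In the nuclear complex the 7 tested genes passed in each mutant, 2 higher and 5 lower. Of all tested genes, 58.4% passed in Ins/Ins, with 29.0% higher and 29.4% lower. In Ins/Del 62.5% of them passed, with 30.6% higher and 31.9% lower. *Rbpj*, which encodes the DNA-binding partner of the Notch intracellular domain, rose modestly, from 4940 ± 74.9 normalized counts in the control to 5717 ± 74.2 in Ins/Ins and 6077 ± 82.6 in Ins/Del (log2 fold change 0.21, adjusted p = 4.99e-08, and 0.30, adjusted p = 9.29e-12). The 3 Mastermind coactivator genes fell. *Maml1* had 1129, 1002, and 1114 in the control, 567, 610.5, and 522 in Ins/Ins, and 506, 577, and 519.5 in Ins/Del, and fell 1.91-fold and 2.02-fold (adjusted p = 8.08e-17 and 7.2e-18). *Maml2* had 73.8 ± 7.68 in the control, 26.8 ± 6.70 in Ins/Ins, and 36.7 ± 6.31 in Ins/Del, with log2 fold changes of -1.44 and -1.01. *Maml3* had 42.6 ± 6.65, 5.72 ± 3.19, and 7.40 ± 3.44, with log2 fold changes of -2.79 and -2.48 that rest on 18 and 22 reads in the mutants. *L3mbtl3*, which encodes a repressor that binds RBPJ, had 244 ± 20.7, 83.7 ± 12.1, and 82.1 ± 11.9 and fell 2.90-fold and 2.98-fold (adjusted p = 2.95e-14 and 1.53e-14). *Snw1* rose by 0.11 and 0.14 and *Spen* fell by 0.12 and 0.10 on the log2 scale, and exons of *Slirp* on the opposite strand cover 44.2% of the exonic length of *Snw1*.

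Of the 8 inhibitors and turnover genes, 1 rose and 5 fell in each mutant, where 29.0% of all tested genes rose and 29.4% fell in Ins/Ins and 30.6% rose and 31.9% fell in Ins/Del. *Dtx4*, a Deltex ubiquitin ligase gene, had 518, 471, and 483 normalized counts in controls, 99.2, 119.6, and 98.3 in Ins/Ins, and 56.2, 68.6, and 71.7 in Ins/Del. It fell 4.67-fold in Ins/Ins (log2 fold change -2.22, adjusted p = 1.98e-22) and 7.50-fold in Ins/Del (log2 fold change -2.91, adjusted p = 5.94e-25). *Dtx1* and *Dtx3* also fell in both mutants, whereas *Dtx2* rose by 0.34 and 0.28. *Numbl*, an endocytic adaptor gene, fell by 0.34 and 0.68 on the log2 scale, and its relative *Numb* had values of 0.033 and -0.011 (adjusted p = 0.615 and 0.872). Among the other targets, *Nrarp* and *Hey2* passed in neither mutant, and exons of the antisense gene *Gm38287* cover 79.4% of *Nrarp*. *Hes5*, a main Notch target of neural cells, had at most 4 reads in a library and was not tested. *Hes6*, whose product is known to oppose Hes1, had 394, 441, and 397 normalized counts in the control, 148, 133, and 142 in Ins/Ins, and 88.9, 121, and 94.9 in Ins/Del, with log2 fold changes of -1.54 and -2.00 (adjusted p = 2.56e-17 and 3.74e-20).

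Between the mutants, 2 of the 39 genes were higher and 3 were lower in Ins/Del, together 12.8% against 10.8% of all tested genes. *Poglut1* was higher by 0.18 on the log2 scale (adjusted p = 0.000967) and *Adam10* by 0.21 (adjusted p = 0.000485). *Dtx4* was lower by a log2 difference of -0.68 (adjusted p = 0.000358), *Numbl* by -0.34 (adjusted p = 0.000666), and *Hes6* by -0.46 (adjusted p = 0.00533). Without Ins/Del replicate 2 the calls of *Poglut1* (adjusted p = 0.0173) and *Numbl* (adjusted p = 0.0135) were lost, and that of *Hes6* was lost without replicate 1 or 3 of either mutant and under DESeq2 (adjusted p from 0.0148 to 0.0512).

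For the 3 genes that fell more than 2-fold, the tested genes with the most similar pattern over the 9 libraries were found by Pearson's r of log2 normalized counts. For *Notch3* these were *Myh9*, a non-muscle myosin gene, with r = 0.999, and *Egfr*, the epidermal growth factor receptor gene, with r = 0.998. For *Dll1* they were *Lmo4* with r = 0.997 and *Fzd3*, a Wnt receptor gene, with r = 0.996. For *Dll3* they were *Fam13a* with r = 0.966 and *Cntn3* with r = 0.964. The points are 9 libraries in 3 groups and the genes were picked from all tested genes, so these values describe likeness and were not tested.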

How the data were processed

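RNA-seq counts of 9 libraries were analyzed, 3 per genotype, grouped by the genotype labels. The authors aligned reads to mm10 with STAR (2.7.3) and deposited whole-number HTSeq counts per gene symbol, without normalization. The annotation and the strand setting used in counting are not given in the sources used here, so antisense and overlapping genes may share reads. Library totals lay between 15838064 and 21366868 reads, and their size limits precision for genes with few reads.

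Counts were scaled with TMM, filtered with filterByExpr, and fitted with edgeR (4.0.16, R 4.3.3) as a quasi-likelihood model over all 9 libraries with 3 groups. Benjamini-Hochberg adjustment covered all 14125 tested genes, with a limit of 0.01. For each log2 fold change a standard error was taken from its F statistic, and 95% intervals use the t distribution. Normalized counts are reads scaled by TMM to the mean effective size of the 9 libraries. Levels per kb use the union of GENCODE M21 exons on GRCm38, the build of mm10. The fit was tested on simulated counts of 13888 genes with 100 genes changed at each size. A log2 change of 0.75 was called for 82 of 100 genes in Ins/Ins and 79 in Ins/Del, and one of 1.5 for 95 and 96, with 2 false calls in each comparison. Those counts were drawn from the model fitted to these data, with rises and falls in equal number. Far more genes passed in the real data, 58.4% in Ins/Ins and 62.5% in Ins/Del, so the simulation does not measure false calls there. Correlations used log2 of normalized counts plus 0.5. Python 3.11.15, pandas 2.3.3, and matplotlib 3.10.9 made the remaining tables and figures.

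Named genes are the 10 Notch genes, *Rbbp4*, other pathway genes past the limit and over 2-fold in a mutant or past it between the mutants, up to 3 genes with the highest counts for a role that had none, and, for each of the 10 genes over 2-fold, the 2 genes most like it. Other pathway and marker genes named beside a count were chosen after their values were seen. The counts over the other pathway genes include 1 gene that is not reported here. The genes and lists were chosen with earlier results of these data known. Replicates differed by more than sampling noise, with a chi-square per gene of 1.87 to 4.62. The alternatives were DESeq2 (1.42.0), its size factors in edgeR, total count scaling, all genes with at least 1 read, only the groups compared, a replicate block, each library left out in turn, and an adjusted p limit of 0.05.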

Additional observations from a re-analysis of the deposited data

Results flagged for a closer look

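Over the 10 genes and the 39 other pathway genes tested, the change against control differed between the mutants in 7. This is by the direct edgeR test of Ins/Del against Ins/Ins (adjusted p at most 0.01). It was passed by 20% of the 10 genes, 12.8% of the 39, and 10.8% of all tested genes. *Notch3* fell further in Ins/Del, with a log2 difference of -0.37 and 3 of 3 Ins/Del libraries below all Ins/Ins libraries. *Jag2* did the same with a log2 difference of -0.35. Among the other pathway genes, the log2 difference was -0.68 for *Dtx4*, -0.46 for *Hes6*, and -0.34 for *Numbl*, each a further fall in Ins/Del. *Adam10* and *Poglut1* rose further in Ins/Del, by log2 differences of 0.21 and 0.18. In each of the 7 genes the libraries of the mutants did not overlap. The genes were picked by the test on these same libraries, so the lack of overlap adds no support. Each mutant is a single clone, so a difference between the alleles and a difference between clones cannot be told apart.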

How the results depend on the processing

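Under the 15 alternatives for each gene and comparison, no fold change of the 10 genes against control and no called difference between the mutants changed sign. The differences between the mutants nearest 0, none of them called, took either sign (-0.061 to 0.032 for *Notch1*, -0.062 to 0.036 for *Notch4*, and -0.072 to 0.076 for *Hes1*). Of the 20 fold changes of the 10 genes against control, 2 lost their call, both of *Notch4* (-0.22 without control replicate 2 and -0.23 without Ins/Del replicate 2). Of the 10 differences between mutants, that of *Jag1* passed the limit with DESeq2 size factors in edgeR (0.21, adjusted p = 0.00969) and without Ins/Ins replicate 2 (0.25, adjusted p = 0.00801), within a range of adjusted p from 0.00801 to 0.125. So 1 of the 10 genes was higher in Ins/Del than in Ins/Ins with those size factors and at an adjusted p limit of 0.05, and 0 to 1 when single libraries were left out. Of the other pathway genes, 5 were lower between the mutants with all genes with at least 1 read and 6 at the limit of 0.05, and 1 to 2 were higher when single libraries were left out. Without Ins/Del replicate 2, *Poglut1* (0.16, adjusted p = 0.0173) and *Numbl* (-0.29, adjusted p = 0.0135) lost the call between mutants, and *Hes6* lost it under DESeq2 (-0.46, adjusted p = 0.0168) and without replicate 1 or 3 of Ins/Ins or of Ins/Del, with adjusted p from 0.0148 to 0.0512. The cause of these changes was not tested.

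No clear pairing of libraries by replicate number was seen. Deviations of same-numbered libraries correlated between -0.0196 and 0.0625 over 9 pairs, and those of other pairs between -0.0568 and 0.0535. A small effect shared by libraries of the same number could go unseen in such values. With the replicate block, 8225 genes passed in Ins/Ins, 8795 in Ins/Del, and 1499 between the mutants, against 8252, 8829, and 1527 without it, and 8 of the 10 genes fell and 1 rose in each mutant, as without it. The block changed no call of the 10 genes. Depth limits genes with few reads, such as *Dll3*, *Hey1*, and *Maml3*, whose intervals are wide.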
